A study of Mus musculus with 72 samples.

Results

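The hippocampus of postpartum dams was set against that of dams late in pregnancy. Of the 72 libraries in the series, 15 were chosen by their region and stage labels: 9 from dams 1 (PP1), 3 (PP3) or 10 (PP10) days after birth, and 6 from dams at PC14 and PC16, late in gestation, with 3 mice at each stage. All were C57BL/6J females that had borne no litter before, were bought at 8 weeks of age and were trio bred to males of their own strain, and no transgene or drug is named for any of them. Virgin mice were not used. Each library came from 1 mouse, and by the numbers in the titles the same mouse also gave a hypothalamus, a neocortex and a cerebellum. Frozen tissue was used, from animals that had not been perfused. The labels count the day of the plug as day 1 and the methods count it as day 0, so the PC stages may be earlier by a day than their names say. Birth, life with a litter and the time since conception differ together between PP and PC and cannot be told apart, and fewer cells of a type cannot be told apart from less RNA per cell.

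The hippocampus joins the dentate gyrus and the fields CA3 and CA1 into the circuit that lays down new memories of places and events, and its dentate gyrus is a site of neurogenesis in adult rodents. Its neurons are rich in receptors for stress steroids, and its glia respond to steroids as well. Groups of genes that cells use to meet changing demands are described first: the chaperones, which fold other proteins, the metallothioneins, which bind zinc and copper, and the cold-inducible RNA-binding proteins. Genes of astrocytes and of myelin follow.

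The median library held 13103884 counts (range 11657695 to 14022299). Markers of hippocampal fields were high in the 15 hippocampal libraries. Fibcd1, a marker of CA1, was at 239.8 ± 15.2 CPM (SD, n = 15), where CPM is counts scaled to a common library size and composition, against 1.10 to 10.4 CPM on average in the same mice's other regions. Prox1, which marks dentate granule neurons, was at 87.0 ± 5.86 CPM in hippocampus and 14.22 to 46.0 CPM elsewhere. In 2 PP libraries, PP1 replicate 3 (HP156) and PP3 replicate 2 (HP353), choroid plexus, a tissue within the ventricles that makes cerebrospinal fluid, was nearly lacking. There 28 markers of that tissue summed to 333 and 297 CPM, against 3716 to 8286 CPM in the other 13 libraries. Results that rest on these 2 libraries are given without them as well, and also from a fit with the summed level of those markers as a covariate.

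Of 13871 genes tested, 28 were higher in PP than in PC (0.202%) and 32 were lower (0.231%), 60 in all (0.433%), with a Benjamini-Hochberg adjusted p under 0.05 (edgeR, quasi-likelihood F test). The test compares the mean of the 3 PP stages with the mean of the 2 PC stages, and its p-values rest on the spread between mice. Differences were small. Those of the higher genes were 0.11 to 0.58 on the log2 scale (median 0.19) and those of the lower genes -0.80 to -0.14 (median -0.29), and 0 of the 60 passed 2-fold. In 23 of the 60 the 9 PP and 6 PC libraries did not overlap. Among all genes tested, the PP libraries lay wholly above the PC libraries in 0.231% and wholly below in 0.108%.

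The count of 60 moved with single libraries. It was 186 without PP3 replicate 2, which is HP353, and 182 without both choroid-poor libraries, where 78 genes were higher (0.558%) and 104 lower (0.744%). With the choroid level as a covariate it was 382, with 177 higher (1.28%) and 205 lower (1.48%). Of the 60 genes, 56 were also called without the 2 libraries and 60 with the covariate. The count was 18 without PC14 replicate 3, 19 without PC14 replicate 1, 19 without PC16 replicate 1, 24 without PP10 replicate 3, 26 without PC14 replicate 2, 27 without PC16 replicate 3, 27 without PP1 replicate 2, 30 without PP3 replicate 3 and 31 without PC16 replicate 2. The 13 genes called whichever single library was left out were Ahsa1, Cdr1, Efhd1, Elk1, Gfap, Hopx, Hsph1, Klhl2, Mt1, Oxsr1, Plec, Rbm3 and Scarna2. This set was read off after the values were seen.

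**Figure D1:**
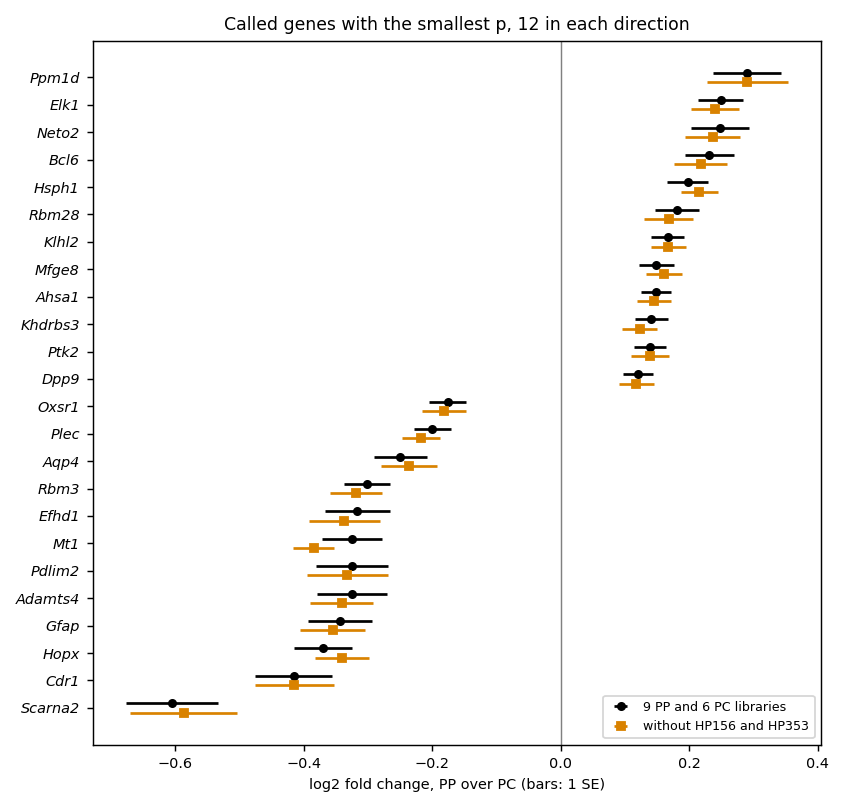
Log2 fold change of PP over PC, with 1 SE as bars, for the 12 genes with the smallest p in each direction. Black circles use the 9 PP and 6 PC libraries and orange squares leave out HP156 and HP353. Scarna2 lies farthest left at -0.61 and Ppm1d farthest right at 0.29, and each pair of points lies on the same side of 0.

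Several chaperones were higher after birth. Of 36 tested members of a list of heat shock and endoplasmic reticulum chaperones, 3 rose in PP (background 0.202%), 0 fell, and 31 had a positive estimate, with a median of 0.12, against -6.5e-04 over all genes tested. Hsph1, which encodes a large heat shock protein that helps Hsp70 release its clients, had 246, 279 and 296 CPM in PP libraries (lowest, median and highest of 9), against 223, 244 and 248.6 CPM in PC libraries (of 6). Only the lowest PP library, PP3 replicate 2, fell within the PC range. Hsph1 rose by 0.20 ± 0.03 on the log2 scale (SE, adjusted p = 0.010, edgeR).

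Ahsa1, which stimulates the ATPase of Hsp90, had 108, 113 and 121 CPM in PP, against 99.9, 103 and 105 CPM in PC. Its groups did not overlap, and it rose by 0.15 ± 0.02 on the log2 scale (SE, adjusted p = 0.0076, edgeR). Stip1, the adaptor that carries clients between Hsp70 and Hsp90, had 148.7, 168 and 176 CPM in PP, against 142, 148 and 158 CPM in PC, and rose by 0.16 ± 0.03 (SE, adjusted p = 0.043, edgeR). Its lowest PP library was again PP3 replicate 2, and the other 8 lay above all 6 PC libraries.

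Without the 2 choroid-poor libraries, 11 chaperones rose (background 0.558%), and with the choroid level as a covariate 18 rose (background 1.28%). The 8 that joined without the 2 libraries were Calr, Hsp90aa1, Hsp90ab1, Hspa1a, Hspa4l, Hspa5, Hspa8 and Pdia6. Hspa5, the main chaperone of the endoplasmic reticulum, had 242, 371 and 470.5 CPM in PP, against 234, 300.0 and 361 CPM in PC. With all 15 libraries its log2 difference was 0.27 ± 0.11 (SE, adjusted p = 0.33, edgeR), and without the 2 it was 0.36 ± 0.08 (SE, adjusted p = 0.034, edgeR). Calr, a calcium-binding chaperone of the same compartment, had a log2 difference of 0.18 ± 0.06 (SE, adjusted p = 0.17, edgeR) with all libraries and 0.23 ± 0.04 (SE, adjusted p = 0.0077, edgeR) without them. The stage medians of the list were 0.11 at PP1, 0.10 at PP3 and 0.13 at PP10, each against the same PC libraries. Dnajb1, an Hsp40 that is strongly heat-inducible, had 51.0, 63.4 and 69.3 CPM in PP and 54.4, 62.9 and 67.0 CPM in PC, and its adjusted p was 0.88 (edgeR).

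**Figure D2:**
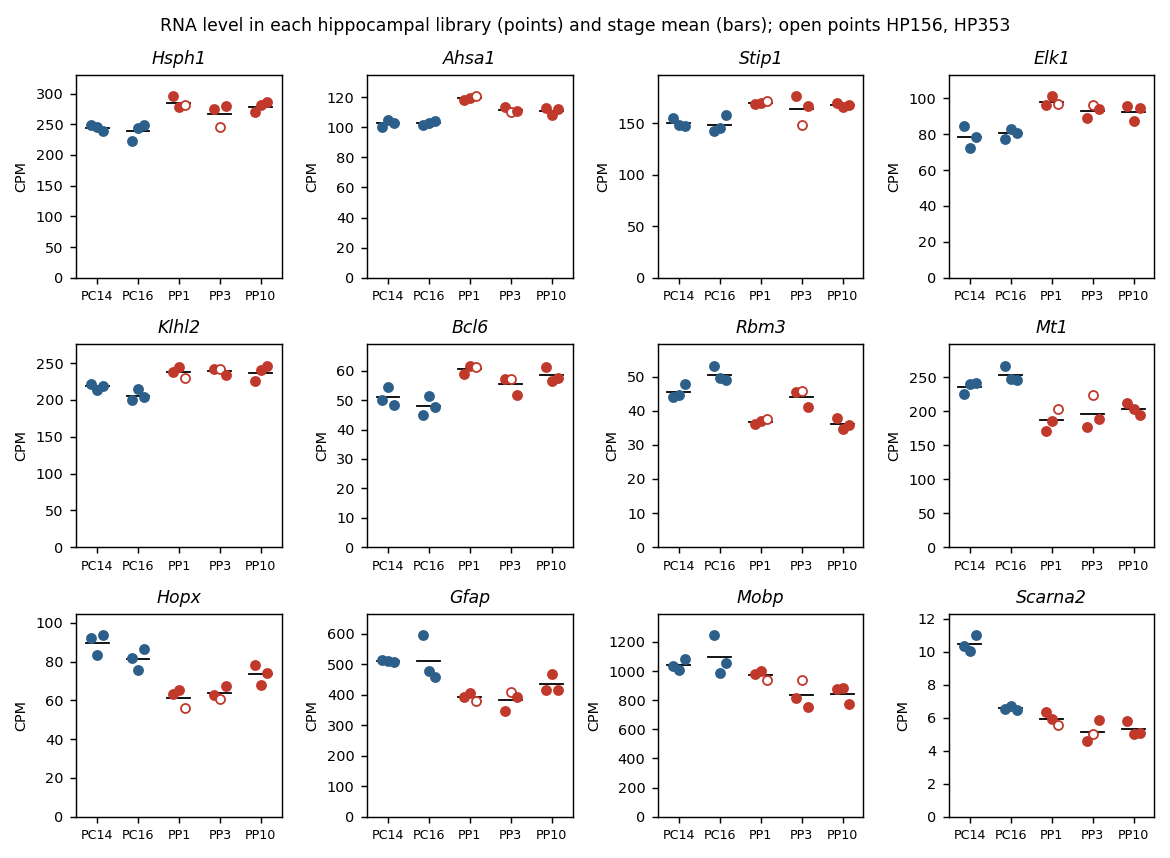
RNA level (CPM, linear axis from 0) of 12 genes in each hippocampal library at PC14, PC16, PP1, PP3 and PP10, with bars for stage means and open points for HP156 and HP353. Ahsa1 and Klhl2 show PP points wholly above PC points, Mt1 and Scarna2 show them lower, and Scarna2 is near 10.5 CPM at PC14 and 6.57 CPM at PC16.

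The promoters of the 3 chaperones that rose are shown because the members moved together. The windows, from RefSeq on GRCm38.p6, run from 250 bases before to 50 bases after the start of transcription. Capitals mark matches to 1 arrangement of the heat shock element, GAANNTTC, which reads the same on both strands. Hsph1 has 1 match to these letters, which begins 42 bases after the start, and Ahsa1 and Stip1 have 0 in these windows. Other arrangements of the element were not searched. Bases without capitals, in Hsph1 before the start as well, may therefore still hold the element. The coordinates are chr5:149636287-149636586 on the minus strand for Hsph1, chr12:87266478-87266777 on the plus strand for Ahsa1 and chr19:7039977-7040276 on the minus strand for Stip1.
Hsph1: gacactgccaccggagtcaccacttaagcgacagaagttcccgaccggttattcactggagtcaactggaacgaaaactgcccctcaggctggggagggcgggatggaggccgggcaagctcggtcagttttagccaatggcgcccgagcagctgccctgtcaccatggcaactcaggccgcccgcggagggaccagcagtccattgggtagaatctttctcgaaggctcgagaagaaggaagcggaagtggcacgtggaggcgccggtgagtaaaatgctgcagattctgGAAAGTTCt
Ahsa1: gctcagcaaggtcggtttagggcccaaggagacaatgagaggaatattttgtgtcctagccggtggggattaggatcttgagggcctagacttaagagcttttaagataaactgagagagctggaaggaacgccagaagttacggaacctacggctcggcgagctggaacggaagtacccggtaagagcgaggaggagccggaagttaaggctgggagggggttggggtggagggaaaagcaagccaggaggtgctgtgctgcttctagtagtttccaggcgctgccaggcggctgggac
Stip1: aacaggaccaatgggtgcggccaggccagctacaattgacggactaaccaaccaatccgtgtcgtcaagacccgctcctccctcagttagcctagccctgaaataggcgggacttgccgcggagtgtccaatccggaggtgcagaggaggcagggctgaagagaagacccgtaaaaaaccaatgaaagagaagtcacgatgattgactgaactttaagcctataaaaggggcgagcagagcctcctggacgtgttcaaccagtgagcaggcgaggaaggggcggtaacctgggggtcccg

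The letters GAANNTTC occur in 7.86% of 32851 mouse promoters of this length. Of the chaperone list, 31 of 36 genes matched the promoter table with 40 promoters, and 11 of those promoters held the letters. Among the 60 called genes, 45 matched with 55 promoters, and 4 held them, at Hsph1, Muc6 and Neto2.

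Metallothionein RNA fell after birth. Mt1, which binds zinc and copper and is induced by these metals and by glucocorticoids, had 171, 194 and 224 CPM in PP, against 225, 244 and 267 CPM in PC. All 9 PP libraries were below all 6 PC libraries. Mt1 fell by 0.32 on the log2 scale (SE 0.05, adjusted p = 0.0049, edgeR). Mt2, its neighbor on chromosome 8, had 69.6, 85.7 and 106 CPM in PP, against 99.5, 116 and 133 CPM in PC, and fell by 0.41 (SE 0.07, adjusted p = 0.024, edgeR). The Mt2 groups overlapped at their edges. These were the 2 called genes among 18 tested members of a list of glucocorticoid-responsive genes (background 0.231%), of which 16 had a negative estimate and the median was -0.09. Fkbp5, a co-chaperone of the glucocorticoid receptor that is a sensitive readout of it, had 69.0, 78.1 and 87.2 CPM in PP and 71.6, 80.9 and 84.4 CPM in PC, with an adjusted p of 0.85 (edgeR). Without the 2 choroid-poor libraries Ddit4, an inhibitor of mTOR signaling, was called as well (-0.18 ± 0.04, SE, adjusted p = 0.043, edgeR).

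The metallothionein promoters are shown because the pair fell together. Capitals mark the core of the metal response element, read as TGCACNC or TGCGCNC on either strand, a motif that was added to those chosen at the outset. Mt1 at chr8:94178839-94179138 on the plus strand has 3 matches, which begin at -23, 3 and 21 from the start, and Mt2 at chr8:94172368-94172667 on the plus strand has 4, at -223, -128, -50 and 5. Such letters occur in 25.7% of mouse promoters of this length.
Mt1: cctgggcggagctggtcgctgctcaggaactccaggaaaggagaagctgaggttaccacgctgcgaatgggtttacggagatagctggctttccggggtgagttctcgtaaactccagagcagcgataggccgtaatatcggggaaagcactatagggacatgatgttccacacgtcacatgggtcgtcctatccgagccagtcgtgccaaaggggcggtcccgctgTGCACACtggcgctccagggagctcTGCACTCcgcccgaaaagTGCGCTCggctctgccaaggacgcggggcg
Mt2: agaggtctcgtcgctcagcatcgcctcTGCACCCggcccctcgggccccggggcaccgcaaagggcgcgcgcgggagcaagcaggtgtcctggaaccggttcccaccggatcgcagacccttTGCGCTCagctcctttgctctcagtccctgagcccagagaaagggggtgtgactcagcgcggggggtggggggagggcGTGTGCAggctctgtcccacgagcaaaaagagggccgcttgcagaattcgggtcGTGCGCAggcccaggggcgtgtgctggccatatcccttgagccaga

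Other genes rose in PP as well. Elk1, an ETS factor that binds promoters of growth-responsive genes, lies at chrX:20933395-20950608 and had the smallest p among the higher genes. It had 87.4, 95.7 and 101 CPM in PP, against 72.4, 79.5 and 84.7 CPM in PC, with no overlap, and rose by 0.25 ± 0.04 on the log2 scale (SE, adjusted p = 0.0049, edgeR). Klhl2, an adaptor of a cullin ubiquitin ligase that binds actin, lies at chr8:64739675-64850017 and had 225, 240.1 and 246 CPM in PP, against 199, 214 and 222 CPM in PC, again with no overlap. Klhl2 rose by 0.17 ± 0.03 (SE, adjusted p = 0.0076, edgeR). Bcl6, a transcriptional repressor, had 51.8, 57.5 and 61.7 CPM in PP, against 45.0, 49.1 and 54.5 CPM in PC, and rose by 0.23 ± 0.04 (SE, adjusted p = 0.013, edgeR). Ppm1d, a phosphatase that dampens the p53 response, had 13.1, 14.02 and 16.3 CPM in PP, against 10.9, 11.5 and 12.7 CPM in PC. It rose by 0.29 ± 0.05 (SE, adjusted p = 0.024, edgeR), and Neto2, an auxiliary subunit of kainate receptors, rose by 0.25 ± 0.05 (SE, adjusted p = 0.024, edgeR). The remaining genes of the 12 with the smallest p had log2 differences of 0.12 to 0.18. They were Ptk2, the focal adhesion kinase, Khdrbs3, a splicing factor of neurons, Mfge8, which bridges dying cells to phagocytes, Rbm28, a nucleolar protein, and Dpp9, a cytosolic dipeptidyl peptidase.

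Cnr1 and Vegfc were the only called members of their lists with all libraries and no covariate. They were 1 of 15 tested interneuron markers and 1 of 17 tested genes of VEGF and angiogenesis, against 0.202% of all genes higher. Of the interneuron markers 9 had a positive and 6 a negative estimate, and 2 were higher and 3 lower at an unadjusted p under 0.05 (edgeR). Sst was called lower without the 2 choroid-poor libraries (against 0.744% of all genes), and Npy and Sst with the choroid covariate (against 1.48%). Of the VEGF genes 8 were positive and 9 negative, with 1 higher and 3 lower at that unadjusted p. Cnr1, the cannabinoid receptor of many hippocampal interneurons, had 185, 191 and 209 CPM in PP, against 170.3, 177 and 186 CPM in PC, and rose by 0.13 ± 0.03 (SE, adjusted p = 0.048, edgeR). Vegfc, a growth factor for lymphatic and blood vessels, had 2.67, 3.25 and 3.42 CPM in PP, against 1.79, 2.01 and 2.87 CPM in PC. It rose by 0.58 ± 0.11 (SE, adjusted p = 0.033, edgeR), the largest difference of the 28 higher genes, on 23 to 44 reads per library, and DESeq2 gave it no adjusted p.

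Rbm3, an RNA-binding protein that cells make when cooled, lies at chrX:8138975-8145880 and fell after birth. It had 34.7, 37.6 and 45.7 CPM in PP, against 44.0, 48.4 and 53.2 CPM in PC, and its log2 difference was -0.30 ± 0.04 (SE, adjusted p = 0.0012, edgeR). The PP libraries that entered the PC range were 2 of the 3 from PP3, where the stage mean was 44.2 ± 2.56 CPM (SD, n = 3), against 36.8 ± 0.80 CPM at PP1 and 36.1 ± 1.53 CPM at PP10. Against PC the difference was -0.38 ± 0.05 at PP1 (adjusted p = 0.0051, edgeR), -0.12 ± 0.05 at PP3 (adjusted p = 0.35, edgeR) and -0.41 ± 0.05 at PP10 (adjusted p = 0.0039, edgeR). The stages were set against each other only as PP10 minus the mean of PP1 and PP3, which gave an adjusted p of 0.60 (edgeR). That contrast averages PP3 with PP1, so it cannot show whether PP3 differed from the other PP stages, which was not tested. Cirbp, the other cold-inducible member, shared the order of the PP stages. Its means were 60.7 and 66.6 CPM at PC14 and PC16, then 50.3, 64.3 and 46.5 CPM at PP1, PP3 and PP10. At PP3 its mean lay above that of PC14, and its difference against PC was 0.015, while that of Rbm3 was negative. Cirbp was not called with all 15 libraries, with a log2 difference of -0.26 ± 0.07 (SE, adjusted p = 0.10, edgeR).

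Hopx, Gfap and Aqp4 were among the lower genes. Hopx, a small homeodomain protein found in quiescent stem cells of the dentate gyrus and in astrocytes, had 55.9, 65.4 and 78.5 CPM in PP, against 75.5, 85.0 and 93.6 CPM in PC. It fell by 0.37 on the log2 scale (SE 0.04, adjusted p = 0.0012, edgeR), and 8 of 9 PP libraries lay below all PC libraries. Stage means were 89.6 and 81.3 CPM at PC14 and PC16, then 61.5, 63.8 and 73.6 CPM at PP1, PP3 and PP10. The exons of Hopx overlap those of the antisense gene Hopxos, and the counting is not stated to use strand, so their reads cannot be told apart. Hopx was the only called gene among 22 tested members of the list of neurogenesis and cell cycle genes (0.231% of all genes were lower), whose median was 0.03. Dcx, which marks immature neurons, had 12.4, 13.3 and 15.9 CPM in PP and 12.5, 14.6 and 15.4 CPM in PC, with an adjusted p of 0.82 (edgeR).

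Gfap, the intermediate filament of astrocytes, lies at chr11:102887336-102900912 and had 347.3, 407 and 469 CPM in PP, against 459, 510.2 and 595 CPM in PC. The groups touched in 1 PP library, and Gfap fell by 0.34 on the log2 scale (SE 0.05, adjusted p = 0.0054, edgeR). Aqp4, the water channel of astrocyte end feet, had 89.2, 98.0 and 110.3 CPM in PP, against 109, 115 and 127 CPM in PC, and fell by 0.25 (SE 0.04, adjusted p = 0.013, edgeR). These were the 2 called members of 19 tested astrocyte markers (background 0.231%), and the list's median was -0.01. Of the 19, 7 had a positive and 12 a negative estimate, and 3 were higher and 4 lower at an unadjusted p under 0.05 (edgeR). Agt was called higher by DESeq2 (against 0.562% of all genes) and with the choroid covariate (against 1.28%). Besides Gfap and Aqp4, DESeq2 called Gja1 lower (against 0.476%), and the covariate fit called Gja1 and S100b lower (against 1.48%). The summed CPM of all 20 markers was 7699 to 8270 in PP and 7910 to 8245 in PC. Slc1a2, the main glutamate transporter of astrocytes, had 2160.5, 2369 and 2490.0 CPM in PP and 2316, 2350.3 and 2405 CPM in PC, with an adjusted p of 0.92 (edgeR).

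Several lower genes belong to none of these groups. Plec, which links filaments of the cytoskeleton, had 286, 295 and 316 CPM in PP, against 308, 348 and 373 CPM in PC, and fell by 0.20 (SE 0.03, adjusted p = 0.0049, edgeR). Efhd1, a calcium-binding protein of mitochondria, had 18.9, 20.3 and 21.9 CPM in PP, against 22.8, 25.3 and 28.8 CPM in PC, with no overlap, and fell by 0.32 (SE 0.05, adjusted p = 0.010, edgeR). Oxsr1, a kinase that acts on chloride cotransporters, had 48.3, 52.1 and 54.6 CPM in PP, against 57.4, 58.6 and 61.9 CPM in PC, again with no overlap, and fell by 0.18 (SE 0.03, adjusted p = 0.012, edgeR). Adamts4, a protease that cuts matrix proteoglycans, and Pdlim2, a scaffold protein of actin fibers, each fell by 0.32, with adjusted p-values of 0.013 and 0.018 (edgeR).

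Several myelin genes were lower after birth. Of 20 tested markers of mature oligodendrocytes and myelin, 3 fell (background 0.231%), 0 rose, and 19 had a negative estimate, with a median of -0.13. Mobp, a structural protein of myelin, had 750, 881 and 1003 CPM in PP, against 989, 1047 and 1245 CPM in PC, and fell by 0.28 on the log2 scale (SE 0.05, adjusted p = 0.026, edgeR). Mal and Cldn11, a membrane proteolipid and a tight junction protein of the sheath, fell by 0.21 and 0.23, with adjusted p-values of 0.041 and 0.048 (edgeR). Mbp, the myelin basic protein, had 2479, 2799.9 and 3229 CPM in PP and 3098, 3229.9 and 3618 CPM in PC, and a log2 difference of -0.21 ± 0.04 (SE, adjusted p = 0.057, edgeR). Without the 2 choroid-poor libraries 9 members fell (background 0.744%), Mbp and Mog among them, and 9 fell with the covariate (background 1.48%). With 2 groups in place of stage coefficients 0 were called, and the median was -0.13.

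The medians of the myelin list were -0.06 at PP1, -0.20 at PP3 and -0.19 at PP10 against PC. PP10 minus the mean of PP1 and PP3 gave 0 calls, but it averages PP1 with PP3 and cannot show whether PP1 stood apart. Mobp had stage means of 1042 and 1098 CPM at PC14 and PC16, then 974, 834 and 844 CPM at PP1, PP3 and PP10. The summed CPM of the 20 markers was 5743, 6342 and 7231 in PP (lowest, median and highest), against 6959, 7217 and 8126 in PC. Markers of thalamus, a neighboring tissue that a hippocampal dissection can carry, had lower sums as well. They summed to 164, 184 and 189 CPM in PP, against 175, 198 and 207 CPM in PC, and 10 of 12 had a negative estimate (median -0.13), with 0 called by edgeR or DESeq2 and 4 lower at an unadjusted p under 0.05. The part of dissection in the myelin result was not tested.

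**Figure D3:**
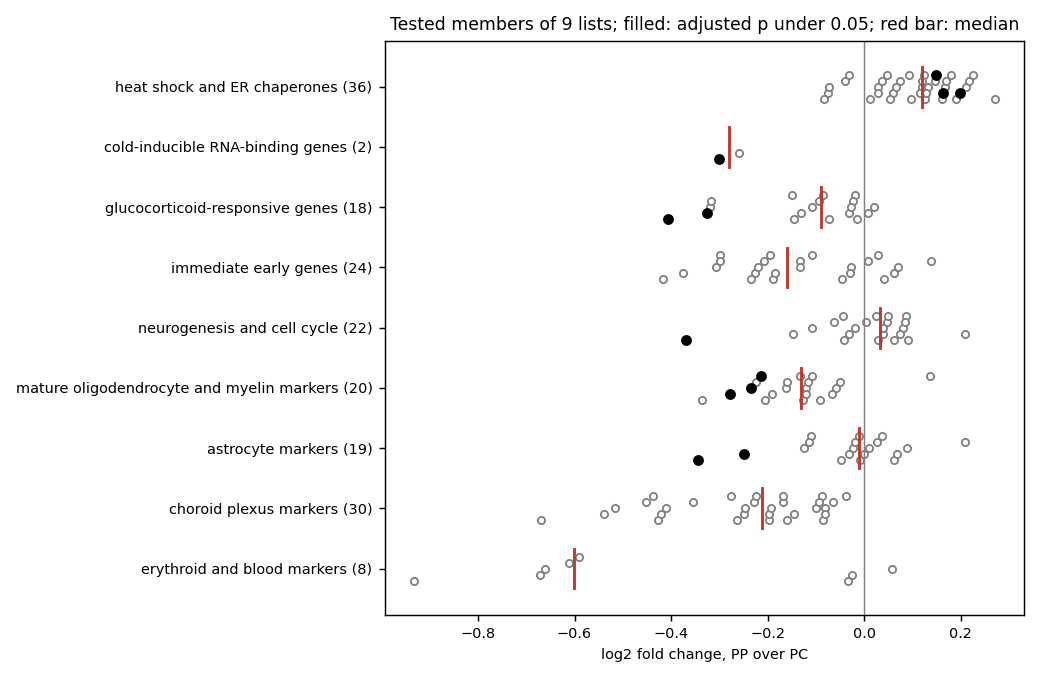
Log2 fold change of PP over PC for each tested member of 9 gene lists, with the number tested in brackets. Filled points have an adjusted p under 0.05 and red bars are medians; chaperones center on 0.12, myelin markers on -0.13, and choroid plexus and erythroid markers hold no filled point.

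The separate stages gave fewer calls than their mean. PP1 against PC gave 13 higher genes (0.0937%) and 13 lower genes (0.0937%). The higher ones with the smallest p were Ahsa1, Elk1, Paqr7 and Fkbp4. Fkbp4 encodes the Hsp90 co-chaperone of steroid receptors and had 140.1 ± 3.89 CPM at PP1 (SD, n = 3), against 122 ± 3.12 CPM in PC (SD, n = 6). Fkbp4 rose at PP1 by 0.20 ± 0.03 on the log2 scale (SE, adjusted p = 0.019, edgeR). Paqr7, a membrane receptor for progestins, had 95.6 ± 4.98 CPM at PP1, against 80.4 ± 3.49 CPM in PC, and rose by 0.25 ± 0.04 (SE, adjusted p = 0.019, edgeR). The means of Paqr7 at PP3 and PP10 were 81.8 and 85.8 CPM, and neither stage was called against PC.

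The lower genes at PP1 with the smallest p were Hopx, Rbm3, Ptn and Plec. Ptn, the growth factor pleiotrophin, had 126 ± 0.16 CPM at PP1 (SD, n = 3), against 152 ± 7.17 CPM in PC, and fell by 0.27 (SE 0.04, adjusted p = 0.019, edgeR). Its means at PP3 and PP10 were 144 and 135 CPM. Ugt8a, which makes galactolipids of myelin, rose at PP1 to 41.4 CPM, against 33.4 CPM in PC, by 0.31 ± 0.06 (SE, adjusted p = 0.029, edgeR), and it was the only called myelin marker at that stage. The 26 calls at PP1 numbered 0 without PP1 replicate 1, 3 without PP1 replicate 2, 3 without PP1 replicate 3, 4 without PC14 replicate 3, 11 without PC14 replicate 1, 12 without PC14 replicate 2, 13 without PC16 replicate 2, 16 without PC16 replicate 3 and 47 without PP3 replicate 2. Without both choroid-poor libraries they numbered 14 (0.1%).

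PP3 against PC gave 4 higher genes (0.0288%) and 5 lower ones (0.036%). Higher were Rps25-ps1, Rpl9, Rps2 and Krt2. Rps25-ps1 is a processed pseudogene of a ribosomal protein, Rpl9 and Rps2 encode ribosomal proteins, and reads of such families are shared between near-identical copies, so their values are uncertain. Rps25-ps1 had stage means of 9.19 and 3.16 CPM at PC14 and PC16, then 3.71, 11.7 and 8.40 CPM at PP1, PP3 and PP10, so PC14 and PP10 lay close, as did PC16 and PP1. Rps2 showed the same order, with 34.0 and 23.0 CPM at PC14 and PC16, then 23.4, 35.4 and 33.2 CPM. Lower genes with the smallest p were Scarna2, Hopx, Oxsr1 and Gfap. The 9 calls at PP3 became 117 without PP3 replicate 2 and 132 without both choroid-poor libraries (0.944%). They numbered 3 without PP3 replicate 1 or PP3 replicate 3, 4 without PC14 replicate 1 or PC14 replicate 2, and 5 without PC14 replicate 3, PC16 replicate 1, PC16 replicate 3 or PP10 replicate 2.

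PP10 against PC gave 0 higher genes and 2 lower ones (0.0144%), Rbm3 and Scarna2. At an unadjusted p under 0.05 there were 1267 genes, and DESeq2's Wald test called 51 (0.368%). It gave an adjusted p to 5803 of the 13871 genes here, so that share also counts genes it could not call. The 2 calls became 16 without PP3 replicate 2 and 0 without PP10 replicate 3, and 1 was left without any of PC14 replicate 1, PC14 replicate 2, the 3 PC16 replicates, the 3 PP1 replicates or PP10 replicate 1. No gene passed between PP10 and the mean of PP1 and PP3, by edgeR or by DESeq2, and 1005 genes had an unadjusted p under 0.05. Across the 6 pairs of 1 PP and 1 PC stage, 42 genes were called in at least 1 pair (0.303%). PP1 against PC14 gave 9 higher and 24 lower (0.238%), and PP1 against PC16 gave 2 and 2 (0.0288%). PP3 gave 0 higher and 7 lower genes against PC14 (0.0505%) and 4 and 0 against PC16 (0.0288%). PP10 gave 0 and 6 against PC14 (0.0433%) and 3 (0.0216%) and 3 (0.0216%) against PC16. The order of the pairs by these counts changed with the setting: without the 2 choroid-poor libraries PP3 against PC14 gave 151 calls and PP1 against PC14 gave 22, and with the choroid covariate they gave 188 and 99. The count of 42 became 185 without PP3 replicate 2, 26 without PC16 replicate 2, 23 without PP1 replicate 3, 20 without PP1 replicate 2, 19 without PC14 replicate 2, 17 without PP1 replicate 1 and 12 without PC14 replicate 3.

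Of 24 tested immediate early genes, which neurons switch on with activity, 18 had a negative estimate, with a median of -0.16, and 0 were called (7 were lower and 1 higher at an unadjusted p under 0.05, and DESeq2 called Jun, against 0.562% of all genes higher). Arc, which acts at active synapses, had 88.3, 98.0 and 135 CPM in PP, against 84.7, 119.9 and 276 CPM in PC, with an adjusted p of 0.35 (edgeR). Its stage means were 181 and 106 CPM at PC14 and PC16, then 114, 98.8 and 108 CPM. Jun, a subunit of AP-1, was among the 6 with a positive estimate. It had 162, 171 and 181 CPM in PP, against 147, 157 and 162 CPM in PC, with no overlap, and was called without the 2 choroid-poor libraries (0.16 ± 0.03, SE, adjusted p = 0.013, edgeR) but not with them (0.14 ± 0.03, SE, adjusted p = 0.064, edgeR). With the choroid covariate Jun was called higher (against 1.28% of all genes) and Gadd45g and Klf10 lower (against 1.48%). Of 19 tested activity-regulated synaptic genes 11 had a positive estimate, with a median of 0.0078, and 0 were called by edgeR or DESeq2 (5 were higher and 2 lower at an unadjusted p under 0.05), while the covariate fit called Homer1 higher and Lingo3 and Plk3 lower.

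Of 16 tested steroid and thyroid hormone receptors 0 were called by edgeR with all 15 libraries and the median was 0.05 (2 were higher and 1 lower at an unadjusted p under 0.05). Rara, a retinoic acid receptor, was called lower by DESeq2 (against 0.476% of all genes), by edgeR without the 2 choroid-poor libraries (against 0.744%) and with the choroid covariate (against 1.48%). Nr3c1, the glucocorticoid receptor, had 67.8, 74.4 and 76.7 CPM in PP and 65.6, 70.4 and 73.4 CPM in PC (adjusted p = 0.33, edgeR). The 12 GABA-A receptor subunits tested had a median of 0.0014 and the 17 ionotropic glutamate receptor subunits a median of 0.04, with 0 called in either by edgeR or DESeq2 with all 15 libraries (0 higher and 1 lower, and 4 higher and 0 lower, at an unadjusted p under 0.05). With the choroid covariate edgeR called Gabrd lower (-0.21 ± 0.05, SE, adjusted p = 0.035) and Grik2 higher (0.14 ± 0.04, SE, adjusted p = 0.049). The 4 tested genes of oxytocin and vasopressin signaling had a median of 0.12 and 0 calls by either tool, with 0 at an unadjusted p under 0.05. With the differences as small as they are, a gene with no call may still differ by an amount that 15 libraries do not show.

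Cish, a target of STAT5 that prolactin and growth hormone switch on, separated the groups without passing the test. It had 3.88, 8.80 and 11.1 CPM in PP, against 11.2, 11.8 and 17.7 CPM in PC. All 9 PP libraries were below all 6 PC libraries, as in 0.108% of all genes tested, but only just, at 11.13 against 11.17 CPM. Its lowest values, 4.97 and 3.88 CPM, were in the choroid-poor HP156 and HP353. The log2 difference of Cish was -0.63 ± 0.17 (SE, adjusted p = 0.11, edgeR). With the choroid level as a covariate the difference was -0.46 ± 0.09 (SE, adjusted p = 0.0047, edgeR), and without the 2 choroid-poor libraries -0.45 ± 0.12 (SE, adjusted p = 0.065, edgeR). Prlr, the prolactin receptor, is highest in choroid plexus, so its level followed the amount of that tissue: 3.88, 80.3 and 159.8 CPM in PP, against 82.7, 113 and 163 CPM in PC.

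Set against 1000 CPM of choroid plexus markers, Prlr had 11.2, 15.6 and 20.3 CPM in PP (lowest, median and highest of 9), against 19.3, 20.7 and 22.1 CPM in PC (of 6). A single PP library, at PP10, entered the PC range. By stage the ratio was 20.8 and 20.7 at PC14 and PC16, then 13.6, 14.6 and 18.4 at PP1, PP3 and PP10. The PP1 and PP3 means include HP156 and HP353, where Prlr was at 5.18 and 3.88 CPM. Per 1000 CPM of the same markers, the marker Ttr had 244 and 183 CPM there, against 599 to 641 in the other libraries. The Prlr ratios of those 2 libraries are therefore not a like measure. Without them the PP ratios were 11.2, 16.9 and 20.3 (lowest, median and highest). This ratio is a description that was chosen after its values were seen. In the fit with the choroid covariate Prlr fell in PP by 0.44 (SE 0.05, adjusted p = 2.2e-05, edgeR), by 0.68 at PP1 (SE 0.08, adjusted p = 1.8e-05) and by 0.46 at PP3 (SE 0.07, adjusted p = 0.0020), and the difference at PP10 was -0.18 ± 0.06 (SE, adjusted p = 0.24). The covariate spans the 2 choroid-poor libraries. Without them and without a covariate the PP difference was -0.31 ± 0.19 (SE, adjusted p = 0.50, edgeR), and with all 15 libraries and no covariate -0.67 ± 0.43 (SE, adjusted p = 0.57, edgeR).

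**Figure D4:**
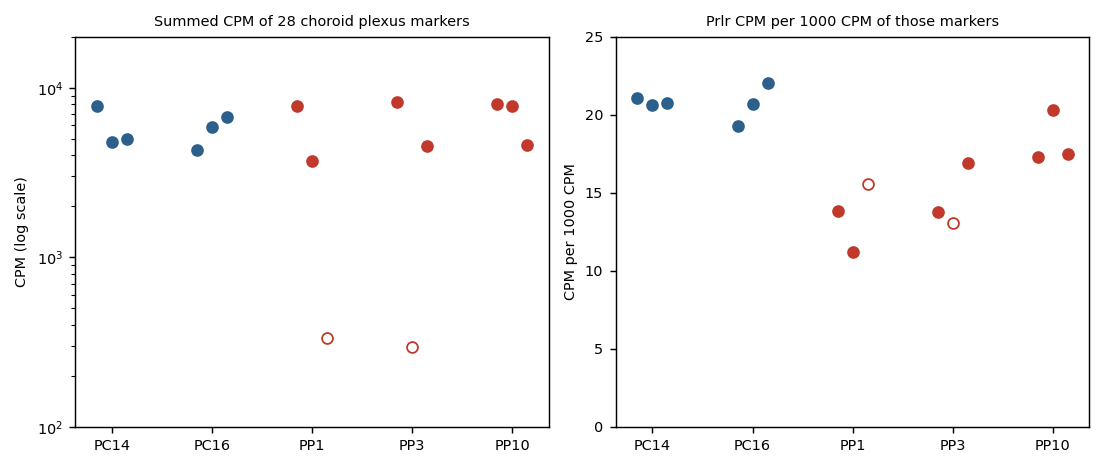
Left, summed CPM of 28 choroid plexus markers in each hippocampal library (log axis); right, Prlr CPM per 1000 CPM of those markers (linear axis from 0), by stage. Open points are HP156 and HP353, at 333 and 297 CPM on the left, and on the right they are not a like measure, since choroid plexus was nearly lacking there. On the right the PC points lie between 19.3 and 22.1 and the PP1 and PP3 points below all of them.

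With all 15 libraries and no covariate, markers of choroid plexus and blood held no call. All 30 choroid plexus markers had a negative estimate (median -0.21, 0 called by edgeR or DESeq2 and 0 at an unadjusted p under 0.05), and without the 2 choroid-poor libraries 22 were positive (median 0.13), so the direction turned on those libraries. With the choroid level as a covariate 6 of the 30 were called lower, against 1.48% of all genes, and the median was 0.02. The 6 were Abca4, Aqp1, Igf2, Prlr, Slc4a5 and Wdr86. That covariate sums the markers of this list other than Prlr and Igf2. Abca4, Aqp1, Slc4a5 and Wdr86 were thus tested against a sum that contains them. The share of all genes is therefore not a like background for this list, and no conclusion is drawn from the count. Of 8 tested erythroid and blood markers 7 had a negative estimate (median -0.60, 0 called by edgeR or DESeq2 and 5 lower at an unadjusted p under 0.05), and the 14 listed summed to 536, 728 and 897 CPM in PP, against 597, 929 and 1122 CPM in PC. The pituitary hormone genes Cga and Fshb were at 0 in the 15 libraries. Whether blood or other tissue had a part in any result above was not tested.

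The same contrast in the other regions of the same mice was used to ask which differences were particular to the hippocampus. The test of PP minus PC in hippocampus against the mean of the other 3 regions called 4 genes (0.0288%). With the mouse as a replicate block it called 3. It called 2 without PC14 replicate 2 or 3, PC16 replicate 1 or 3, PP1 replicate 2 or PP3 replicate 3. Cdr1, which lies at chrX:61184005-61185558 within the locus of a circular RNA of the opposite strand, had 37.6, 45.2 and 47.9 CPM in PP hippocampus, against 42.4, 57.4 and 78.1 CPM in PC hippocampus. It fell there by 0.42 on the log2 scale (SE 0.06, adjusted p = 0.0049, edgeR). Its PP minus PC estimates in the fit of all regions were -0.41 ± 0.06 in hippocampus, 0.34 ± 0.12 in hypothalamus, 0.25 ± 0.06 in neocortex and 0.19 ± 0.05 in cerebellum (SE). The difference between hippocampus and the others was -0.67 ± 0.08 (SE, adjusted p = 7.6e-07, edgeR). Exons of Cdr1 overlap C230004F18Rik on the other strand, and reads of the pair cannot be told apart.

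Scarna2, a small RNA that guides modification of spliceosomal RNA in Cajal bodies, had 4.59, 5.55 and 6.34 CPM in PP hippocampus, against 6.49, 8.38 and 11.0 CPM in PC hippocampus, on 61 to 147 reads, with no overlap. It fell by 0.61 (SE 0.07, adjusted p = 0.0012, edgeR), and its region difference was -0.76 ± 0.12 (SE, adjusted p = 4.6e-04, edgeR). Libraries were made after mRNA isolation, and how evenly this small RNA passed that step was not tested, so its level is uncertain. For both genes the PC level was set mostly by PC14. Cdr1 was at 73.1 ± 8.11 CPM at PC14 (SD, n = 3) and 46.5 ± 4.37 CPM at PC16, beside 46.5, 43.6 and 41.2 CPM at PP1, PP3 and PP10. Scarna2 was at 10.5 ± 0.47 CPM at PC14 and 6.57 ± 0.11 CPM at PC16, beside 5.93, 5.16 and 5.30 CPM. Their PP levels thus lay close to those at PC16.

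Klhl2 was called as higher in hippocampus than elsewhere in this contrast. In the scaling of all regions it had 244 ± 7.45 CPM in PP (SD, n = 9), against 217 ± 8.73 CPM in PC (SD, n = 6) in hippocampus, 75.7 and 76.5 CPM in hypothalamus, 158 and 151 CPM in neocortex, and 46.8 and 48.3 CPM in cerebellum, PP before PC in each. Its region difference was 0.17 ± 0.03 (SE, adjusted p = 0.023, edgeR). The call was lost against neocortex alone (0.11, adjusted p = 0.61, edgeR). It was also lost without any of the 3 PC14 replicates, PC16 replicate 1 or 3, PP1 replicate 1 or 2, PP3 replicate 3, or PP10 replicate 2 or 3, with adjusted p of 0.051 to 0.25 (edgeR). Igsf1, a membrane glycoprotein of the hypothalamus and pituitary, had its largest values in hypothalamus. It had 7.08 ± 1.35 CPM in PP hippocampus and 6.96 ± 0.97 CPM in PC hippocampus. In hypothalamus it had 128 ± 4.60 CPM in PP, against 154 ± 4.54 CPM in PC, and those did not overlap. In neocortex it was near the floor, with 0.19 CPM in PP and 0.74 CPM in PC on average, and in cerebellum it had 3.75 and 5.63 CPM. The region difference weights these regions equally, so it also rests on the neocortex values near the floor. Its region difference was 0.99 ± 0.19 (SE, adjusted p = 0.023, edgeR) and was not called with the mouse as a block (adjusted p = 0.063, edgeR), against neocortex alone (adjusted p = 0.099, edgeR), or without any of PC14 replicate 2 or 3, the 3 PC16 replicates, PP1 replicate 1 or 2, PP3 replicate 1 or 3, or PP10 replicate 1.

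**Figure D5:**
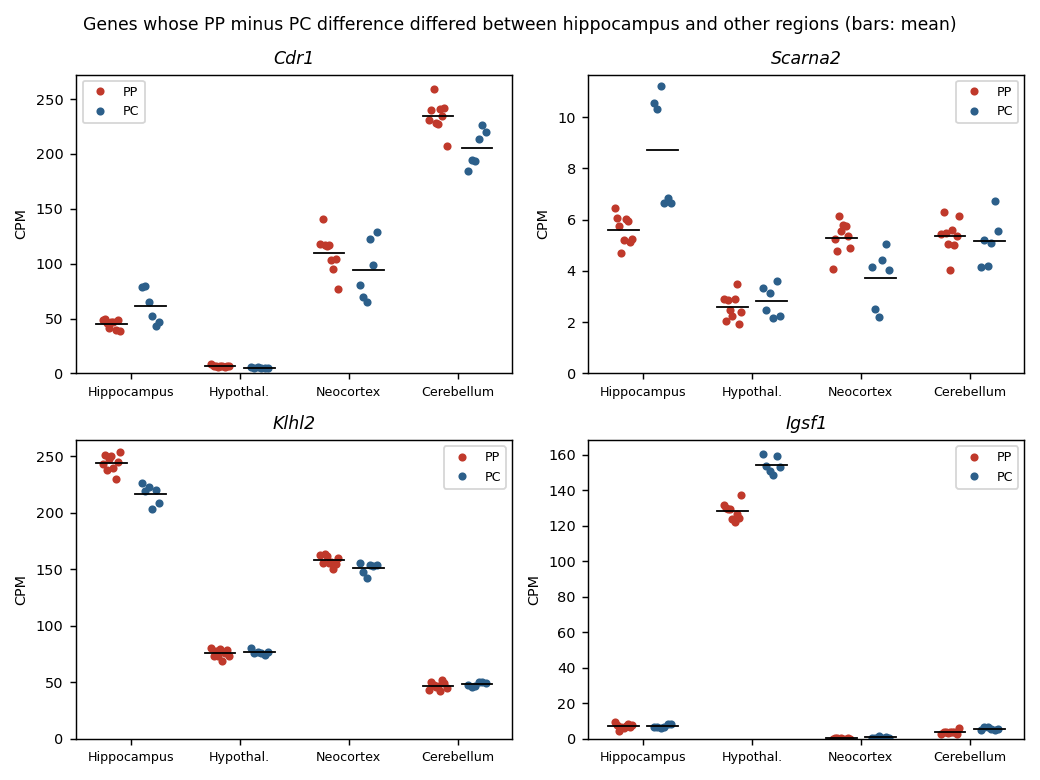
CPM (linear axis from 0) of the 4 genes called between regions, in PP (red, left) and PC (blue, right) libraries of each region, with bars for means. In hippocampus Cdr1 and Scarna2 lie lower in PP and Klhl2 lies higher, while Igsf1 is at 7.08 and 6.96 CPM there and 128 and 154 CPM in hypothalamus.

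Most genes called in hippocampus had the same sign elsewhere. Of the 60, 39 (65.0%) had the same sign of PP minus PC in hypothalamus, neocortex and cerebellum, against 25.2% of all genes tested. The 60 were picked for differences that are large beside their spread, so that share is not a like background. No conclusion is drawn from the gap. The libraries of a mouse share its history, so these are not independent animals. Hsph1 had log2 differences of 0.13 ± 0.04 in hypothalamus, 0.17 ± 0.04 in neocortex and 0.20 ± 0.04 in cerebellum (SE). Mt1 had -0.30 ± 0.05, -0.24 ± 0.05 and -0.26 ± 0.05 in the same regions. Hopx had -0.48 ± 0.07, -0.64 ± 0.06 and -0.32 ± 0.04, and Rbm3 had -0.19 ± 0.06, -0.26 ± 0.06 and -0.17 ± 0.06. Gfap had -0.17 ± 0.08, -0.36 ± 0.08 and -0.66 ± 0.08. None of these 5 was called as different between hippocampus and the other regions.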

How the data were processed

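Total RNA from each dissected region of 1 mouse (5 µg for hippocampus) was taken through mRNA isolation and sequenced. The authors trimmed reads with Trimmomatic 0.32, keeping those of at least 50 bases, and aligned them to GRCm38 with TopHat2 2.0.8. The authors deposited raw counts per Ensembl gene, made with easyRNASeq, and FPKM from Cufflinks 2.1.1. Use of strand in the counting is not given in the sources used here. The members and the gene lists were chosen with earlier results of these data known.

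Genes were tested where each of the 3 mice of some stage had a deposited FPKM of 1 or more (13871 of 39179 IDs, a blank FPKM read as 0, which touched 192 genes). Counts of the 15 libraries (11657695 to 14022299 each) were fitted with a coefficient per stage by edgeR 4.0.16 in R 4.3.3 (TMM scaling, quasi-likelihood test, Benjamini-Hochberg adjusted p under 0.05). The region test used the 60 libraries of the same mice. CPM are on the TMM scale. Genes were named as the 12 of smallest p in each direction for PP against PC, up to 4 for each stage and up to 3 between PP10 and the earlier stages, all region calls, and called members of 42 lists. Other list members given as examples were chosen after their values were seen. Some genes that these rules take in are not reported here. Of 752 list members, 5 were not matched. Coordinates are from GENCODE M21 on GRCm38 and promoters from RefSeq on GRCm38.p6.

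Deviations of a mouse's hippocampus and its other regions from their stage means correlated weakly (45 correlations, mean 0.057, -0.22 to 0.21). The regions pair because they came from the same mouse. Between stages no samples pair. The 15 pairs of replicates held 0 identical libraries, with a chi-square of 1.90 to 11.7 per degree of freedom. Alternatives were DESeq2 1.42.0 (Wald test, size factors), edgeR's exact test, other filters, left-out libraries and a choroid plexus covariate. For PP against PC the Wald test gave an adjusted p to 8223 of 13871 genes. Shares of its calls over all genes, and lists with 0 of its calls, thus include genes it could not call. On simulated counts for PP against PC, 58%, 88%, 100% and 100% of genes changed by 0.25, 0.5, 1 and 2 on the log2 scale were recovered, with 4 false calls. The changed genes were drawn only from those above a floor of counts. The simulated libraries had no other differences between stages and none was poor in choroid plexus. These shares therefore do not cover genes with few reads or the effect of single libraries. Python 3.11.15, numpy 2.4.6, pandas 2.3.3 and matplotlib 3.10.9 were used for summaries and plots.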

Additional observations from a re-analysis of the deposited data

Results flagged for a closer look

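In 8 of 128 groups of library values, a single library lay far from the rest of its group by Dixon's ratio, which chance alone flags in about 1 in 20 groups. Among PP libraries Hsph1 was lowest in PP3 replicate 2 (246 CPM), Stip1 was lowest in the same library (148.7 CPM), and Bcl6 was lowest in PP3 replicate 3 (51.8 CPM). Among PC libraries Hsph1 and Mpdz were lowest in PC16 replicate 1 (223 and 51.2 CPM), and Vegfc was highest in PC16 replicate 3 (2.87 CPM). The summed pituitary markers were lowest in PP10 replicate 1 (625.4 CPM) and the summed interneuron markers highest in PP1 replicate 3 (1665 CPM), both among PP libraries.

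The difference between PP and PC was itself different in hippocampus and in the mean of the other regions for 4 genes. On the log2 scale, hippocampus minus the others was 0.17 for Klhl2, 0.99 for Igsf1, -0.67 for Cdr1 and -0.76 for Scarna2, from the edgeR fit of all regions.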

How the results depend on the processing

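The 60 calls of PP against PC became 144 with DESeq2's Wald test, 147 with no filter, 182 without HP156 and HP353, 382 with the choroid covariate and 37 with 2 groups in place of stage coefficients. For PP1 the 26 calls became 71, 56, 14 and 97 under the same settings up to the covariate, in that order. For PP3 the 9 calls became 81, 73, 132 and 239. For PP10 the 2 calls became 51, 42, 27 and 63, and 4 with filterByExpr. The 42 genes called in any stage pair became 208, 204, 207 and 374, and 203 with edgeR's exact test per pair. The 4 region calls became 10 with filterByExpr and 2 against neocortex only. The cause of these moves was not tested. Leaving out each library in turn gave 18 to 186 calls for PP against PC, 0 to 47 for PP1, 3 to 117 for PP3, 0 to 16 for PP10, 0 to 0 for PP10 against the earlier stages, 12 to 185 for any pair and 2 to 5 for the regions. With the mouse as a replicate block the region test called 3 genes, and Igsf1 was the call lost. Of 62 gene results, 21 kept their direction and their side of the threshold under every alternative run, and 0 reversed. In all, 256 gene values under an alternative lost their call and 13 gained one. Each stage had 3 mice, and no call of PP against PC passed 2-fold, so genes with no call may still differ.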

Other observations

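Several called genes outside the naming rule were picked out after their values were seen. Clec3b, a secreted plasminogen-binding protein, had the largest fall: 1.97, 3.13 and 4.77 CPM in PP libraries (lowest, median and highest of 9), against 4.78, 5.78 and 6.49 CPM in PC libraries (of 6), and -0.80 ± 0.14 on the log2 scale (SE, adjusted p = 0.024, edgeR). Its groups did not overlap. Htr1a, the serotonin 1A receptor, had 36.6, 44.0 and 45.9 CPM in PP, against 31.1, 36.9 and 39.3 CPM in PC, and rose by 0.21 ± 0.04 (SE, adjusted p = 0.048, edgeR). Its stage means were 34.7 and 38.1 CPM at PC14 and PC16, then 45.1, 43.0 and 38.3 CPM at PP1, PP3 and PP10. Npy2r, a receptor for neuropeptide Y, had 37.2, 43.0 and 45.7 CPM in PP, against 34.2, 36.1 and 39.1 CPM in PC, and rose by 0.21 ± 0.04 (SE, adjusted p = 0.032, edgeR). Malat1, a nuclear long noncoding RNA, fell by 0.31 (SE 0.06, adjusted p = 0.041, edgeR), and its stage means were 3181 and 2146 CPM at PC14 and PC16, then 1984, 2279.7 and 2049 CPM, so most of its difference lay at PC14.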
